A study of Mus musculus with 15 samples.

Results

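The 41 transcripts described here encode translation initiation and elongation factors, the proteins that bring ribosomes onto mRNAs and then move them along. They are named by gene symbol in a list ordered by factor complex, whose rule uses no measured value but which was drawn up with earlier results of these data known, and all 41 were found among the 55487 genes of the count tables. RNA sequencing was performed on erythroid progenitors, the precursors of red blood cells, from mouse fetal liver at stage E12.5 (strain 129S6/SvEvTac). The 15 libraries form 5 groups of 3. Group 1 of the mice comprised wildtype and Rpl5 mutant libraries labelled as polyA RNA. Group 2 comprised wildtype, Rpl5 mutant and low-yield Rpl5 mutant libraries labelled as total RNA, and the labels do not define low-yield. The deposited sample sheet names the genotype of both mutant groups of group 2 as Rpl5plusSkax23Jus, and for the group 1 mutants it gives no allele. Nothing in the labels says whether replicates came from separate embryos, so p-values measure the spread between these libraries, which may be technical in part. The Y-linked gene Eif2s3y was at 0 in some libraries and present in others within 4 of the 5 groups, all but group 1 wildtype, so the 3 replicates of those groups were not all repeats of 1 embryo.

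Rpl5 is a protein of the large ribosomal subunit, and mutations in the human gene cause Diamond-Blackfan anemia, a failure of red cell production. Initiation begins when eIF2 carries the initiator tRNA to the small subunit together with eIF1, eIF3 and eIF5, and eIF2B then recharges eIF2 with GTP. On the mRNA, eIF4E binds the cap, eIF4G joins it to the helicase eIF4A and to the poly(A)-binding protein Pabpc1, and the eIF4E-binding proteins (4E-BPs) compete with eIF4G for eIF4E. During elongation eEF1A delivers aminoacyl-tRNAs, the eEF1B subunits recharge eEF1A, and eEF2 moves the ribosome to the next codon. Erythroid cells make very large amounts of globin, and their initiation is tuned to heme by the eIF2 kinase Eif2ak1.

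Many translation factor mRNAs belong to the terminal oligopyrimidine (TOP) class, whose transcripts begin with a run of C and T and are controlled through mTOR, and Myc-type factors bind the E-box CACGTG in promoters. RefSeq start sites of GRCm38.p6 were available for 31 of the 41 genes, with 250 bases before and 50 bases from each start on. The first set shows E-boxes before the starts of the elongation factor gene Eef2, the cap-binding gene Eif4e, the scaffold gene Eif4g1 and the eIF3 subunit gene Eif3f, with the motif in capitals.
Eef2 (chr10:81176576-81176605, forward strand, 43 bases before the start): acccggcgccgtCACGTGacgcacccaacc
Eif4e (chr3:138527192-138527221, forward strand, 64 bases before 1 of its starts): ggacacgtccgtCACGTGggcaggagccgg
Eif4g1 (chr16:20672661-20672690, forward strand, 54 bases before the start): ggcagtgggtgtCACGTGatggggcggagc
Eif3f (chr7:108934335-108934364, forward strand, 68 bases before the start): caagatatgattCACGTGgtataaatttag

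CACGTG reads the same on both strands and does not overlap the pyrimidine runs below. It was present in 10 of the 31 genes (32.3%), against 8.09% of the 27025 genes with a window, and the median GC content was 62.7% in the members' windows and 52.7% in all windows. The other genes with a match were Eif4h, Eif3k, Eif1b, Eif4a1, Eif5a and Eif3a. A match describes the letters in the window and is not a binding site.

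The second set shows the start itself, from 10 bases before it to 20 bases from it on, for the 5 of 10 members listed as TOP mRNAs from general knowledge that have a window. Capitals mark the longest sense-strand run of at least 5 pyrimidines.
Eef1a1 (chr9:78481705-78481734, reverse strand): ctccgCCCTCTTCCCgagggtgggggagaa
Eef2 (chr10:81176621-81176650, forward strand): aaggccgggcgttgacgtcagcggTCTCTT
Eif3f (chr7:108934405-108934434, forward strand): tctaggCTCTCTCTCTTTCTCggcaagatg
Eif4b (chr15:102073763-102073792, forward strand): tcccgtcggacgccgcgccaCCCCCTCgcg
Eef1b2 (chr1:63176821-63176850, forward strand): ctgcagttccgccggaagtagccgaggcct

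A run of this length lay in this stretch in 4 of the 5 TOP genes, in 14 of the 31 members (45.2%) and in 50.5% of all genes with a window. In Eef2 and Eif4b the run lay after the annotated start, and in Eef1b2 the stretch held none. Eif4g2, Pabpc1, Eef1d, Eef1g, Eif3e, Eif3h, Eif3i, Eif2b3, Eif6 and Eif4ebp1 had no window.

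Total counts ran from 48510828 to 58513669 per library in group 1 and from 24954324 to 44827821 in group 2, and no member had fewer than 1404 counts in any library. The targeted gene Rpl5 was lower in every mutant library than in every wildtype library of its group, with log2 fold changes of -0.32 in group 1, -0.46 in the group 2 mutant and -0.44 in the low-yield mutant (edgeR adjusted p = 0.0110, 0.0128 and 0.0101). None of 10 erythroid progenitor markers was at 0 in all libraries, but their summed level moved with genotype. It ran from 4122 to 4376 CPM (counts scaled by TMM factors to a common library size) in wildtype and from 3426 to 3617 CPM in mutants of group 1, and from 5383 to 5749 CPM in wildtype and from 4412 to 4936 CPM in the 6 mutant libraries of group 2. In the joint fit of the 12 wildtype and mutant libraries of both groups of mice, without the low-yield libraries, 8 of these 10 markers were called lower and 1, Kit, higher by edgeR's test. The summed level of 10 erythroid maturation genes, globins and Alas2 among them, ran from 4852 to 6607 CPM in group 1 wildtype and from 2106 to 2399 CPM in group 1 mutants. In group 2 it ran from 6037 to 13095 CPM for wildtype, from 3236 to 4179 CPM for mutant and from 2556 to 3958 CPM for low-yield libraries. The summed level of 10 granulocyte genes ran from 14.2 to 27.9 CPM in group 2 wildtype and from 99.7 to 294 CPM in its 6 mutant libraries, and in group 1 it ranged from 77.9 to 628 CPM in wildtype and from 206 to 1180.0 CPM in mutants. The summed level of 10 early progenitor genes was also higher in mutants without overlap, from 59.5 to 86.7 against 99.3 to 159 CPM in group 1 and from 91.8 to 99.7 against 133 to 193 CPM in group 2. For 10 hepatocyte genes it ran from 35.1 to 64.9 CPM in wildtype and from 6.26 to 23.2 CPM in mutants of group 1, where Alb was called lower, and it overlapped in group 2. For 7 endothelial genes it ran from 0.896 to 1.90 CPM in wildtype and from 3.56 to 10.01 CPM in the mutant libraries of group 2, where Pecam1 was called higher, and it overlapped in group 1. For 8 megakaryocyte genes it ran from 35.2 to 39.6 CPM in group 2 wildtype, from 33.3 to 39.8 CPM in its mutants and from 49.6 to 50.9 CPM with low yield, and it overlapped in group 1. Of single markers, 7 of 10 macrophage, 5 of 7 endothelial and 6 of 6 lymphoid markers stayed under 1 CPM in every library, Timd4, Cd5l and Cd3e at 0. The mitochondrial share of counts ran from 2.36 to 2.81% in wildtype and from 1.60 to 1.99% in mutants of group 1, lower in every mutant library, and in group 2 it overlapped, from 0.499 to 1.22%. The part of these differences in markers and mitochondrial share in the results that follow was not tested, and in bulk libraries fewer cells of a type and less RNA per cell cannot be told apart.

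Most translation factor mRNAs did not pass the test for a difference between Rpl5 mutant and wildtype progenitors. The translation initiation factor gene Eif4g2 was the 1 member that passed, higher, in every comparison with wildtype. In group 1, 5 of the 41 members passed edgeR's quasi-likelihood test at an adjusted p under 0.05 (12.2%), where 11.9% of the 14048 genes tested did, 5.42% higher and 6.52% lower. Eif4g2, Eif4b, Eef2 and Eef1a1 were higher and Eif4a2 was lower. In group 2, Eif4g2 alone passed in the mutant (2.44% of the members, 6.02% of all 15024 genes, 3.23% higher and 2.80% lower), and Eif4g2, Eif4e and Eif4b passed in the low-yield mutant (7.32% of the members, 11.7% of all genes, 6.14% higher and 5.56% lower). The members' share of calls was close to or under that of all genes tested in each of these fits. With the replicate number as a block, which would pair the libraries of group 1 by number, the same 5 members passed there. The count over all genes then rose from 1678 to 2772. Over both groups of mice together, with the group as a block, 6 members passed (14.6%, against 18.0% of 15954 genes, 8.96% higher and 8.99% lower): Eif4g2, Eif4b, Eef2, Eef1a1 and the eIF2B subunit gene Eif2b1 higher, and Eif4a2 lower. This joint fit holds the 12 wildtype and mutant libraries and not the low-yield ones. Its count was 12 with voom, 10 with a mean CPM of at least 5 as the filter, and 2 or 3 without any 1 library other than group 1 mutant replicate 2 (6), group 2 wildtype replicate 1 (9) and group 2 mutant replicate 2 (7). The group 1 count was 1 without wildtype replicate 2 or mutant replicate 3, 3 without wildtype replicate 1 or 3, and 4 and 7 without mutant replicates 1 and 2. The low-yield count was 1 without wildtype replicate 2 or low-yield replicates 1 or 2, and 6 with voom, and the group 2 mutant count was 2 without mutant replicate 2 and 4 with voom. The shares of all genes called without a library, with voom or with the other filter are not given beside these counts. Whether the members moved more than all genes there was not tested.

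The members' fold changes were small and leaned upward. In group 1, 33 of the 41 lay above 0, with a median log2 fold change of 0.08, against 51.1% of all genes tested and a median of 0.01. In group 2 the medians were 0.06 in the mutant (27 of 41 above 0) and 0.09 in the low-yield mutant (31 of 41), against -0.01 and -0.00 over all genes. Of all genes tested, 49.0 and 49.7% lay above 0 there. The log2 fold change was under 0.2 in size for 36, 37 and 35 members in these 3 comparisons; where a gene's fold changes are given as 3 values below, they stand in the same order (group 1 mutant, group 2 mutant, low-yield mutant). In all 3, 24 members lay above 0 and 5 lay below it, namely Eif2b2, Eif3d, Eif3f, Eif4a2 and Pabpc1, and the mutant and low-yield comparisons share their wildtype libraries. The share of all genes with 1 sign in all 3 was not counted. The 95% interval included 0 in all 3 comparisons for 29 members, and no interval of any member reached beyond -0.49 or 0.70 on the log2 scale.

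**Figure D1:**
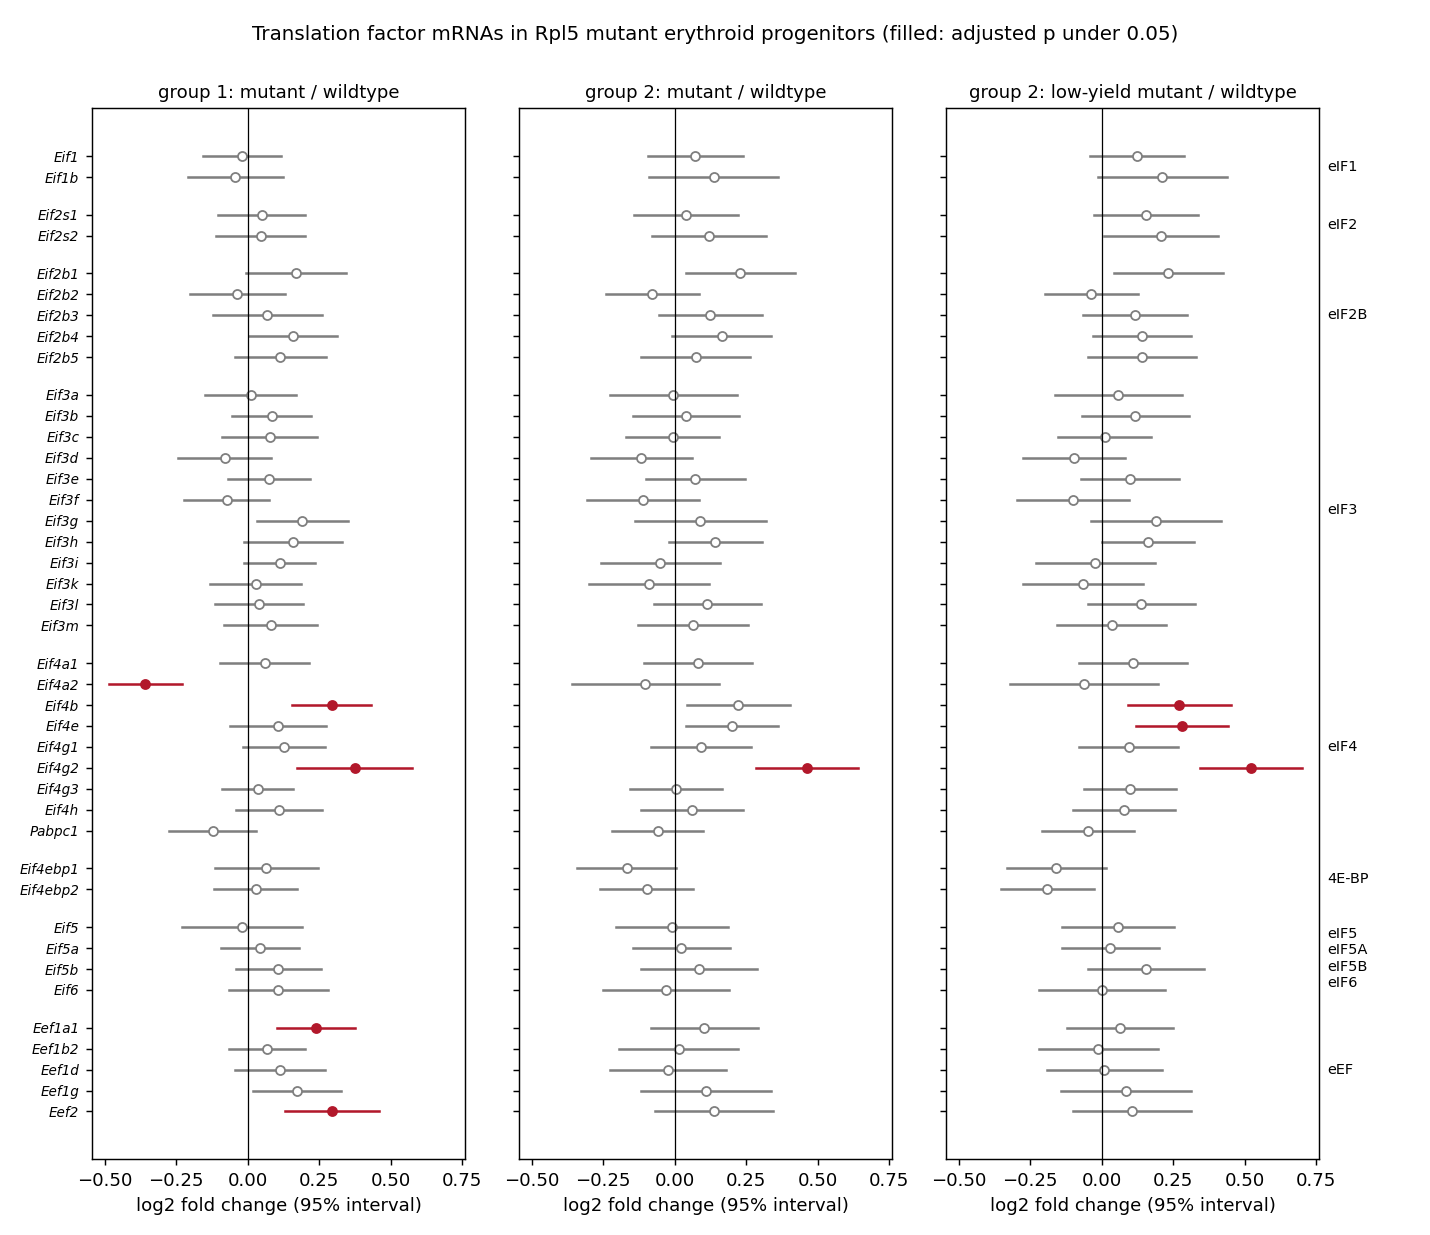
Log2 fold change (point) and its 95% interval (line) of the 41 translation factor mRNAs, ordered by complex, for the 3 comparisons with wildtype; filled red points passed edgeR's test at an adjusted p under 0.05. Eif4g2 is filled in all 3 panels, Eif4a2 lies at -0.36 in group 1, and the 12 eIF3 subunits stay unfilled throughout.

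Levels of different genes were compared per length, as TPM (counts over merged exon length, scaled to the same sum in every library), and only within a group of libraries, since the RNA kind differed between the groups of mice. Elongation factors dominated: Eef1a1 had the highest level in all 5 groups, 11637 ± 245 TPM (SD, n = 3) in group 1 wildtype and 8545 ± 474 TPM in group 2 wildtype, and by merged exon length Eef2 came second with 3755 ± 298 and 4445 ± 288 TPM. Pabpc1, the hypusine-carrying factor gene Eif5a and the eEF1B subunit gene Eef1g followed. These 5 mRNAs held 65.0% of the members' summed level in group 1 wildtype and 66.6% in group 2 wildtype. Pabpc1 and Eif5a overlapped between libraries in group 1 wildtype and could not be ordered there, at 2709 ± 118 and 2610 ± 83.3 TPM. In group 2 wildtype Pabpc1 stood at 1132 ± 60.6 TPM, below Eif5a (1790.2 TPM) and Eef1g (1460.2 ± 155 TPM), with no overlap between neighbours. The order below Eef1a1 depends on the gene length used. With the longest transcript, Pabpc1 came second in group 1 wildtype at 4607 ± 198 TPM, above Eif5a (3273 ± 106 TPM) and Eef2 (3064 ± 241 TPM), which overlapped. In group 2 wildtype Pabpc1 then stood above Eef1g, at 2061 ± 110 against 1653 ± 174 TPM, with no overlap.

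At the low end stood Eif2b3, the gamma subunit of eIF2B, and Eif4g3, the least abundant eIF4G, with 43.3 and 41.9 TPM in group 1 wildtype and 21.8 and 34.4 TPM in group 2 wildtype. Of the 40 pairs of neighbours in the order of levels, 18 did not overlap between libraries in group 1 wildtype and 16 in group 2 wildtype. By merged exon length, members of 1 complex were not at 1 level. In group 1 wildtype the 12 eIF3 subunits ran from 156 TPM (Eif3e) to 661 TPM (Eif3b), a ratio of 4.24. In group 2 wildtype they ran from 57.8 to 623 TPM, a ratio of 10.8. With the longest transcript as gene length these ratios were 3.90 and 7.51, and the highest subunit in group 1 wildtype was Eif3a in place of Eif3b. The merged exon length was 6719 bases for Eif3e and 3346 for Eif3b, and the longest transcript 4123 and 2945 bases. Before division by length, Eif3e was at 337 CPM and Eif3b at 710 CPM in group 1 wildtype. Lengths of the transcripts present were not measured, and the part of length in these ratios was not tested. The eIF2B subunits spanned a ratio of 4.06 in group 1 wildtype and 6.25 in group 2 wildtype, and with the longest transcript 2.38 and 3.66.

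**Figure D2:**
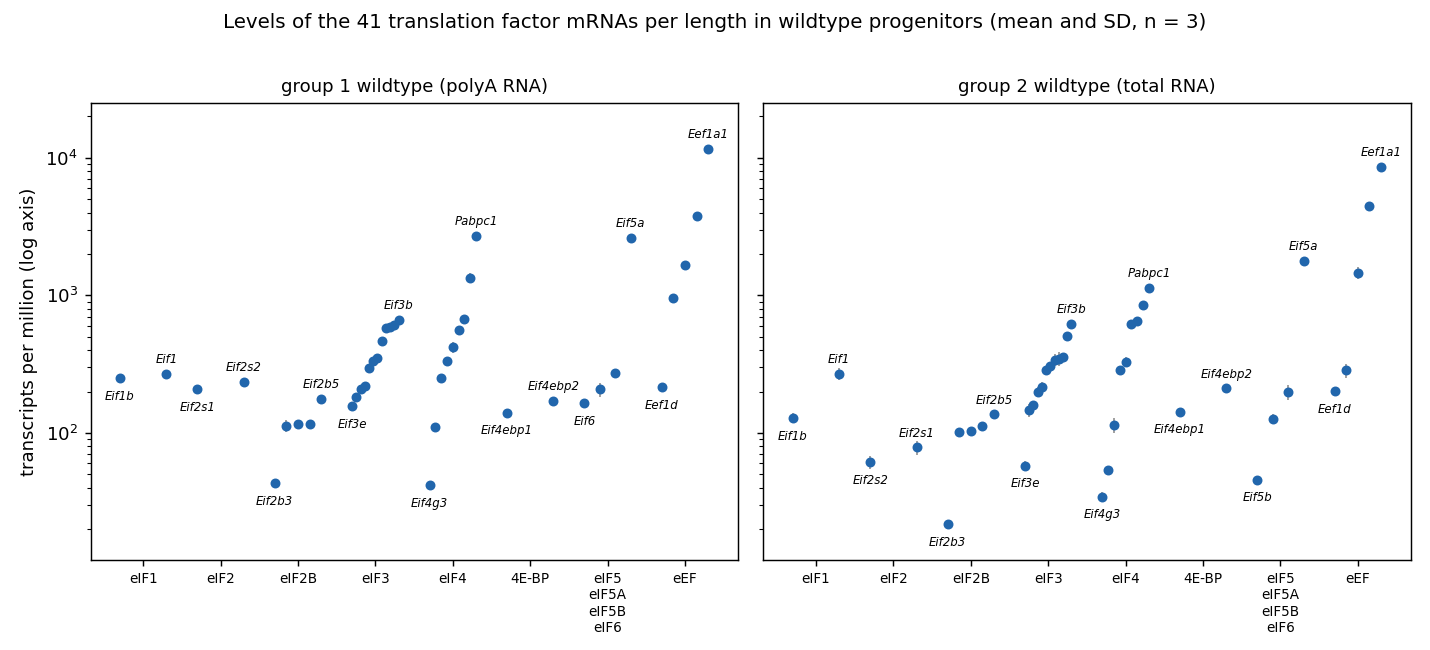
Level of each member per length in the wildtype libraries of group 1 (left) and group 2 (right), grouped by complex, with the highest and lowest member of each complex named; points are means and bars SD of 3 libraries, on a log axis of TPM. Eef1a1 stands at the top of both panels, and by merged exon length the eIF3 subunits span a ratio of 4.24 on the left and 10.8 on the right.

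Among the cap-complex genes, Eif4g2 (DAP5, an eIF4G relative that lacks the eIF4E-binding part; ENSMUSG00000005610, chr7:111067750-111083030, reverse strand, GRCm38; it overlaps 1 snoRNA gene, Gm23262, on the same strand) rose most. In group 1 its level was 1491, 1388 and 1247 CPM in wildtype and 1961, 1572 and 1816 CPM in mutant replicates 1 to 3. The lowest mutant library lay above the highest wildtype library. The log2 fold change was 0.37 (SE 0.09, adjusted p = 0.0229, edgeR). In group 2 it was 1226, 1276 and 1356 CPM for wildtype, 1885, 1597 and 1836 CPM for mutant and 1827, 1908 and 1805 CPM for low-yield libraries. Both mutant groups lay wholly above wildtype, and they overlapped each other. Mutants had a log2 fold change of 0.46 (SE 0.08, adjusted p = 0.00533) and low-yield mutants one of 0.52 (SE 0.08, adjusted p = 0.00127). Over both groups of mice it was 0.42 (SE 0.07, adjusted p = 4.37e-04). The call in group 1 was lost without wildtype replicate 2 (adjusted p = 0.0907), wildtype replicate 3 (0.0916), mutant replicate 1 (0.0560) or mutant replicate 3 (0.118), and no other call of Eif4g2 was lost on leaving out a library.

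The other eIF4G genes did not pass in any comparison. Eif4g1, the main scaffold of cap-dependent initiation, was at 1311 ± 29.1 CPM in wildtype and 1430.3 ± 94.8 CPM in mutant libraries of group 1 (log2 fold change 0.13), and its fold changes in group 2 were 0.09 in both mutants. Eif4g3 lay at 0.03, 0.00 and 0.10. The part of Eif4g2 in the summed eIF4G level per length was 42.8, 41.3 and 39.5% in group 1 wildtype and 46.7, 44.1 and 45.6% in group 1 mutants. In group 2 it was 31.5, 33.1 and 35.4% for wildtype, 39.8, 38.8 and 39.4% for mutant and 39.8, 39.9 and 41.1% for low-yield libraries. The mutant libraries thus lay above the wildtype libraries of their group of mice in this share, with no overlap. The share contains the Eif4g2 level already described and is no separate result.

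Eif4b, which stimulates the eIF4A helicase and is on the TOP list (ENSMUSG00000058655, chr15:102073773-102097173, forward strand), also lay apart from wildtype in all 3 comparisons. It was at 982, 918 and 1005 CPM in wildtype and 1171, 1152 and 1237 CPM in mutants of group 1, with a log2 fold change of 0.29 (SE 0.06, adjusted p = 0.0113, edgeR). The group 2 libraries stood at 1203, 1061 and 1092 CPM for wildtype, 1402, 1214 and 1300.4 CPM for mutant and 1356, 1409 and 1286 CPM for low-yield libraries. The lowest mutant library stood close above the highest wildtype library. The mutant had a fold change of 0.22 (SE 0.08, adjusted p = 0.143) and its low-yield counterpart one of 0.27 (SE 0.08, adjusted p = 0.0499), and over both groups of mice it was 0.26 (SE 0.05, adjusted p = 0.00240). The group 1 call was lost without wildtype replicate 2 (0.0621) or mutant replicate 3 (0.0726). The low-yield call was lost with the fit of the 6 libraries compared (0.0682), with RLE factors (0.0514), without the low-count filter (0.140) and on leaving out any library of group 2 but wildtype replicate 1 and mutant replicate 2 (0.0503 to 0.214).

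Eif4g2 and Eif4b were the members whose libraries lay apart from wildtype in all 3 comparisons. The share of all genes apart in all 3 was not counted, so these 2 genes have no baseline to be set against. Groups of libraries did not overlap for 7 members in group 1, where 31.6% of all genes tested did not overlap. The corresponding counts were 4 members in the group 2 mutant (23.2% of all genes) and 8 in the low-yield mutant (29.9% of all genes).

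Eif4e, the cap-binding protein itself (ENSMUSG00000028156, chr3:138526179-138559696, forward strand), was higher in the low-yield mutant. It was at 124, 119 and 131 CPM for group 2 wildtype, 153, 132 and 144 CPM for mutant and 149.8, 155 and 149 CPM in low-yield libraries. Both mutant groups lay above wildtype, mutant replicate 2 only just. The log2 fold change was 0.28 in the low-yield mutant (SE 0.08, adjusted p = 0.0264, edgeR) and 0.20 in the mutant (SE 0.08, adjusted p = 0.144). In group 1 the libraries overlapped, at 221, 215 and 202 CPM in wildtype and 248, 203 and 236 CPM in mutants (log2 fold change 0.11, adjusted p = 0.419). The low-yield call was lost without wildtype replicate 2 (0.121), low-yield replicate 1 (0.0897) or low-yield replicate 2 (0.113).

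The 2 genes for 4E-BPs, the repressors that hold eIF4E when mTOR is inactive, passed in no comparison. Eif4ebp1 was at 124, 118 and 121 CPM for group 2 wildtype, 109, 118 and 96.3 CPM for mutant and 111, 106 and 109 CPM in low-yield libraries, with log2 fold changes of -0.17 and -0.16 (adjusted p = 0.273 and 0.246, edgeR). Eif4ebp2, the more abundant one per length, was at 469, 492 and 447 CPM for wildtype, 445, 411 and 459 CPM for mutant and 416, 396 and 422 CPM for low-yield libraries (-0.10 and -0.19, adjusted p = 0.550 and 0.128). In group 1 Eif4ebp2 was at 328, 326 and 302 CPM in wildtype and 347, 320.3 and 307 CPM in mutants, which overlapped, and the fold changes of Eif4ebp1 and Eif4ebp2 were 0.07 and 0.03.

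The ratio of the summed 4E-BP level to the Eif4e level, per length, was 6.66, 7.01 and 6.07 for group 2 wildtype, 4.97, 5.67 and 5.13 for mutant and 4.91, 4.51 and 4.92 in low-yield libraries. Every mutant library of group 2 lay below every wildtype library in this ratio. The group 1 ratios were 2.73, 2.78 and 3.00 in wildtype and 2.48, 3.18 and 2.56 in mutants, so the libraries overlapped. With 3 libraries against 3 these ratios are given as values, with no test. With the longest transcript as gene length the ratio was lower throughout, from 5.25 to 6.05 in group 2 wildtype and from 3.90 to 4.92 in its mutant libraries, again with no overlap.

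Eif4a2 was the 1 member called lower, in group 1 and in the joint fit. It encodes an eIF4A helicase nearly alike to Eif4a1 (ENSMUSG00000022884, chr16:23107444-23114136, forward strand), hosts snoRNAs and overlaps Rfc4 on the opposite strand. In group 1 its level was 584, 545 and 581 CPM in wildtype and 448, 441 and 445 CPM in mutant libraries. The groups were clearly apart, and the mutant libraries spread by little (SD 3.64 CPM). The log2 fold change was -0.36 (SE 0.06, adjusted p = 0.00266, edgeR), and it passed on leaving out each of the 6 libraries in turn (adjusted p 0.00495 to 0.0230). In group 2 the libraries overlapped, at 269, 204 and 233 CPM for wildtype, 224, 239 and 195 CPM for mutant and 208, 264 and 204 CPM for low-yield libraries, with log2 fold changes of -0.10 and -0.06 (adjusted p = 0.719 and 0.810). The difference between the groups of mice did not pass (interaction 0.27, SE 0.13, unadjusted p = 0.0601, adjusted p = 1.00). The call over both groups of mice (-0.23, SE 0.07, adjusted p = 0.0325) was lost without any 1 of group 1 wildtype replicates 1, 2 or 3, group 1 mutant replicates 2 or 3 and group 2 mutant replicate 3 (0.0578 to 0.0742). Whether the counting used strand is not given in the sources used here, so reads of Eif4a2 and of Rfc4 in their overlap cannot be told apart.

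The paralog Eif4a1 did not pass, with log2 fold changes of 0.06, 0.08 and 0.11. Eif4a2 made up 19.5, 18.6 and 21.4% of the summed eIF4A level per length in group 1 wildtype and 15.2, 16.5 and 15.1% in group 1 mutants, with no overlap. In group 2 the shares overlapped, from 11.1 to 12.2% for wildtype, from 9.20 to 12.4% for mutant and from 9.83 to 11.9% for low-yield libraries. Pabpc1, the highest cap-complex mRNA per length, was at 5622, 5418 and 6027 CPM in wildtype and 4828, 5392 and 5455 CPM in mutants of group 1 (log2 fold change -0.12, adjusted p = 0.298, edgeR). Group 2 wildtype libraries held 2797, 2827 and 2926 CPM of Pabpc1, mutants 2812, 2786 and 2608 CPM and low-yield mutants 2722, 2876 and 2673 CPM, with overlap and fold changes of -0.06 and -0.05. Eif4h, which like Eif4b assists eIF4A, lay at 0.11, 0.06 and 0.08 and did not pass.

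**Figure D3:**
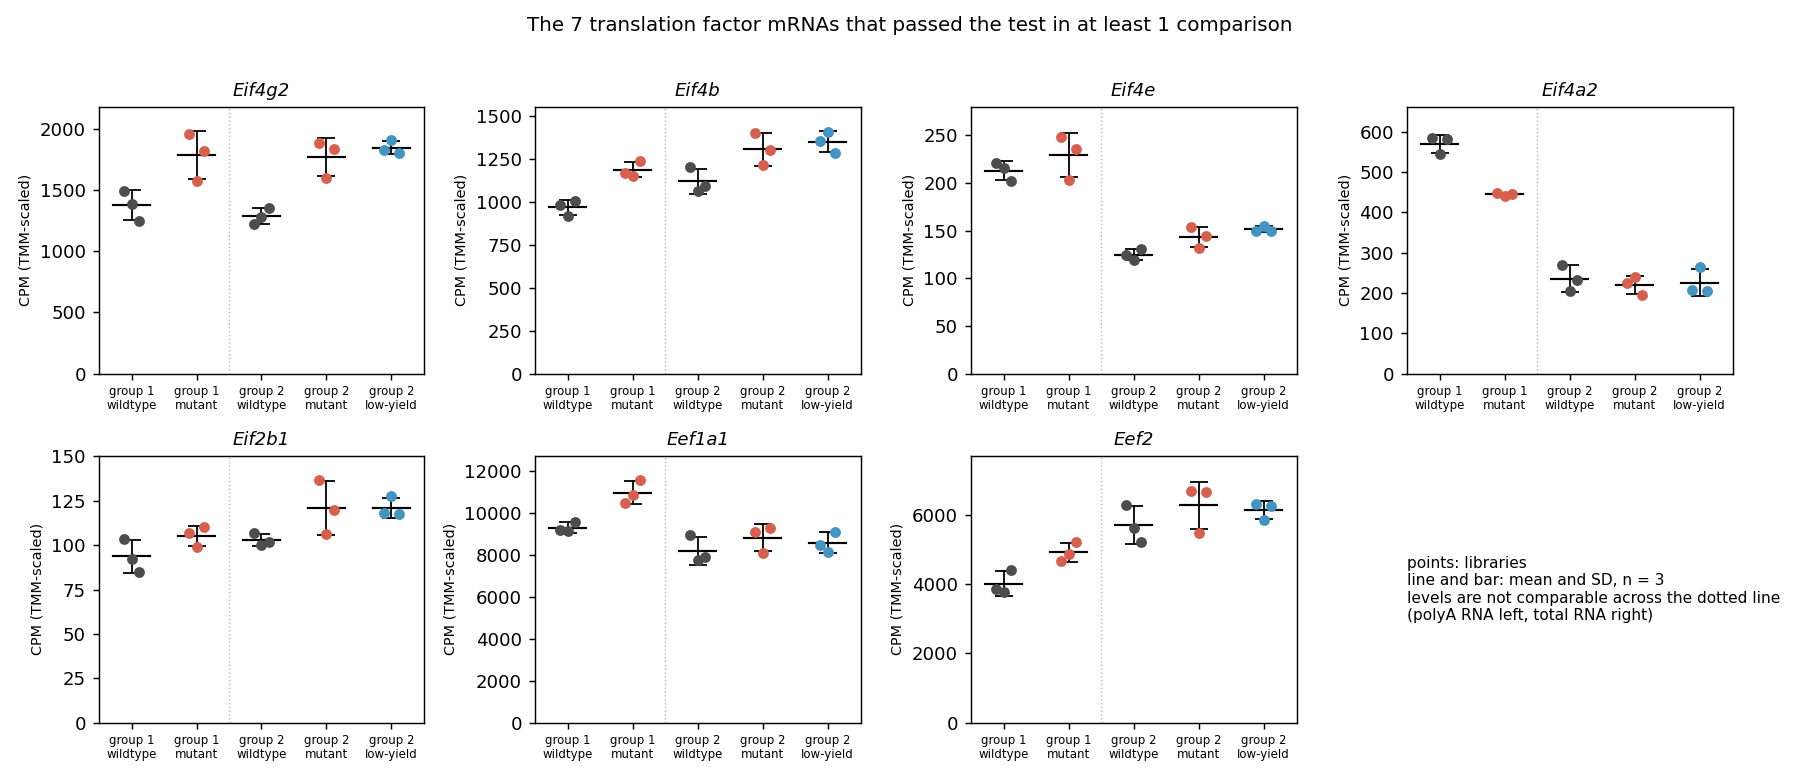
TMM-scaled CPM of the 7 members that passed edgeR's test in at least 1 comparison, in each of the 15 libraries (points), with mean and SD of 3 libraries; the dotted line separates group 1 (polyA RNA) from group 2 (total RNA). For Eif4g2 and Eif4b every mutant library lies above the wildtype libraries of its group of mice, and for Eif4a2 this separation, downward, is seen in group 1.

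**Figure D4:**
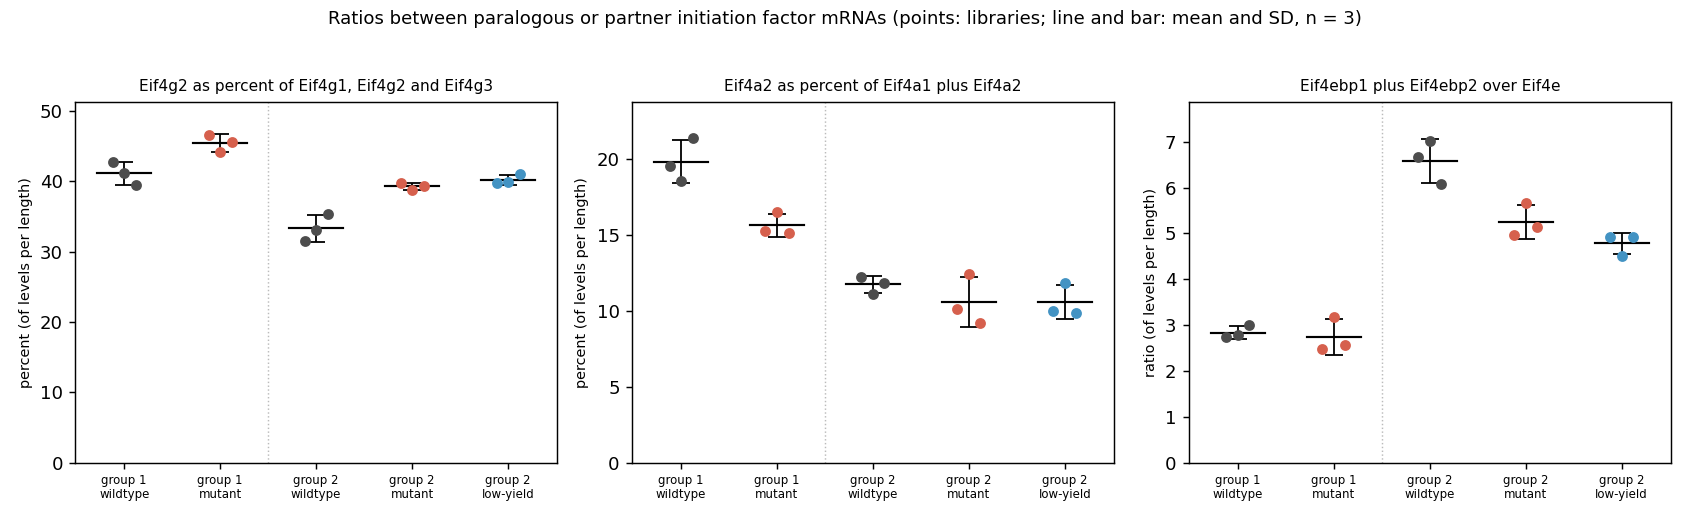
Ratios of levels per length in each library (points; line and bar, mean and SD of 3 libraries): the part of Eif4g2 among the eIF4G genes, the part of Eif4a2 among the eIF4A genes, and summed 4E-BP mRNA over Eif4e mRNA. The first lies higher in mutants in both groups of mice, the second is separate in group 1, and the last lies between 6.07 and 7.01 in group 2 wildtype and between 4.51 and 5.67 in its mutants. Each ratio contains a member that passed a test, so none is a separate result.

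The factors that start initiation passed in no comparison. Of the eIF1 genes, which guard start codon choice, Eif1 was at 181, 177 and 185 CPM in wildtype and 176, 168 and 192 CPM in mutants of group 1, and the groups overlapped. Eif1 in group 2 was at 209.9, 207 and 234 CPM for wildtype, 234, 217 and 233 CPM for mutant and 224, 235 and 251 CPM for low-yield libraries, with overlap between wildtype and each mutant group. Eif1b had log2 fold changes of -0.04, 0.14 and 0.21. For eIF2, the carrier of the initiator tRNA, the alpha subunit gene Eif2s1 lay at 0.05, 0.04 and 0.16 and the beta subunit gene Eif2s2 at 0.05, 0.12 and 0.21. Eif2s2, the higher of the pair per length in group 1 wildtype, was at 532, 480.1 and 521 CPM there and at 522, 491 and 569.8 CPM in the mutants. Eif2s1, the higher in group 2 wildtype, was at 146, 137 and 165 CPM there, at 162, 139.8 and 159 CPM in mutants and at 161, 165 and 172 CPM in low-yield libraries. Wildtype and mutant libraries overlapped for both genes. Their levels per length were within a ratio of 1.14 in group 1 wildtype and 1.28 in group 2 wildtype.

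Of the 5 eIF2B subunits, Eif2b1, the alpha subunit (ENSMUSG00000029388, chr5:124570213-124579131, reverse strand), passed over both groups of mice. It was at 104, 92.4 and 85.0 CPM in wildtype and 107, 99.2 and 110.0 CPM in mutants of group 1. Group 2 values were at 107, 100.4 and 102 CPM for wildtype, 136, 106 and 119.9 CPM for mutant and 118, 128 and 118 CPM for low-yield libraries. Mutant and wildtype libraries overlapped in both groups of mice, and low-yield libraries lay above wildtype. The log2 fold changes were 0.17 in group 1 (SE 0.08, adjusted p = 0.202, edgeR), 0.23 and 0.23 in group 2 (SE 0.09 each, adjusted p = 0.157 and 0.112) and 0.20 over both groups (SE 0.07, adjusted p = 0.0497). Eif2b4 passed over both groups of mice with the replicate block (adjusted p = 0.0328 with the block and 0.0625 without). The call of Eif2b1 was kept only without group 1 wildtype replicate 1, group 1 mutant replicate 2, group 2 wildtype replicate 1 or group 2 mutant replicate 2, and was lost without any of the other 8 libraries (0.0744 to 0.124). Eif2b5, the catalytic subunit and the most abundant one per merged exon length (with the longest transcript Eif2b1 was higher in both mutant groups of group 2), was at 147, 143 and 149.9 CPM in wildtype and 164, 141 and 172 CPM in mutants of group 1, with overlap. Group 2 wildtype libraries held 150.2, 125 and 134 CPM of it, mutants 151, 126 and 153 CPM and low-yield mutants 148, 153 and 151 CPM, again with overlap. Its fold changes were 0.11, 0.07 and 0.14, and Eif2b2 was the 1 subunit below 0 in all 3 comparisons (-0.04, -0.08 and -0.04).

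None of the 12 subunits of eIF3, the large scaffold on the small ribosomal subunit, passed in any of the 6 comparisons as fitted without the replicate block. With it, Eif3h passed over both groups of mice (log2 fold change 0.15, adjusted p = 0.0469 with the block and 0.0755 without, edgeR). Their log2 fold changes ran from -0.08 to 0.19 in group 1, from -0.12 to 0.14 in the group 2 mutant and, in low-yield libraries, from -0.10 to 0.19, with medians of 0.08, 0.02 and 0.05. The outer limits of their 95% intervals were -0.31 and 0.42. The core subunit gene Eif3b, the most abundant per length in group 2 wildtype, was at 709.7, 720.0 and 701 CPM in wildtype and 760.1, 704 and 795 CPM in mutants of group 1, and its group 2 wildtype libraries held 882, 759.7 and 769 CPM, mutants 869, 751 and 859 CPM and low-yield mutants 889, 890.1 and 837 CPM. The groups overlapped in each comparison. The cap-contacting subunit gene Eif3d and Eif3f had the lowest values, -0.08 and -0.07 in group 1 and in group 2 -0.12 and -0.11 for the mutant, -0.10 and -0.10 for the low-yield mutant. Eif3g had the highest value in group 1 (0.19, SE 0.07, adjusted p = 0.114), and Eif3h the highest in the group 2 mutant (0.14, SE 0.08, adjusted p = 0.327). The summed eIF3 level was 5867, 5519.9 and 5887 CPM in wildtype and 5986, 5517 and 6342 CPM in mutants of group 1, which overlapped.

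The factors of start site commitment and subunit joining did not pass either. Eif5, the activator of eIF2's GTP hydrolysis, lay at -0.02, -0.01 and 0.06, and Eif5b, the joining GTPase, at 0.11, 0.08 and 0.15. Eif5a, which helps ribosomes past difficult peptide bonds, was at 2002, 2020.2 and 1950.4 CPM in wildtype and 2076, 1928 and 2145 CPM in mutants of group 1. The group 2 libraries stood at 1678, 1644 and 1594 CPM for wildtype, 1773, 1517 and 1708 CPM for mutant and 1648, 1709.9 and 1661 CPM for low-yield libraries. The groups overlapped in each comparison of mutant with wildtype, and the log2 fold changes of Eif5a were 0.04, 0.02 and 0.03. Eif6, which binds the large subunit and keeps it from joining, lay at 0.11, -0.03 and 0.00.

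The mRNAs of both central elongation factors rose in group 1. Eef1a1 (ENSMUSG00000037742, chr9:78478449-78489151, reverse strand) was at 9203, 9143 and 9595 CPM in wildtype and 10477, 10877 and 11580.2 CPM in mutants. Eef2 (ENSMUSG00000034994, chr10:81176631-81182498, forward strand) was at 3856, 3758 and 4414 CPM in wildtype and 4662, 4879 and 5209 CPM in mutants. For both genes every mutant library lay above every wildtype library. The log2 fold changes were 0.24 (SE 0.06, adjusted p = 0.0295, edgeR) and 0.29 (SE 0.08, adjusted p = 0.0268). In group 2 the libraries overlapped. Eef1a1 was at 8975, 7748 and 7916 CPM for wildtype, 9098, 8101 and 9283 CPM for mutant and 8500.4, 8133 and 9121 CPM for low-yield libraries, with log2 fold changes of 0.10 and 0.06 (adjusted p = 0.585 and 0.714). Eef2 was at 6288, 5611 and 5201 CPM for wildtype, 6680.4, 5471 and 6651 CPM for mutant and 6306, 5848 and 6259.7 CPM for low-yield libraries, with 0.14 and 0.11 (adjusted p = 0.497 and 0.555).

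Over both groups of mice Eef1a1 passed with 0.17 (SE 0.06, adjusted p = 0.0387, edgeR) and Eef2 with 0.22 (SE 0.07, adjusted p = 0.0299), and the difference between the groups of mice did not pass for either (adjusted p = 1.00). The group 1 call of Eef1a1 was lost without wildtype replicates 1 (0.0744), 2 (0.0955) or 3 (0.0677) or mutant replicate 3 (0.159), and that of Eef2 without wildtype replicates 1 (0.0805) or 2 (0.109) or mutant replicate 3 (0.137). Over both groups of mice the call of Eef1a1 was kept only without group 2 wildtype replicate 1 or group 2 mutant replicate 2 (up to 0.135 without the others), and was lost without the low-count filter (0.0768). That of Eef2 was kept only without these 2 libraries, group 1 wildtype replicate 3 or group 1 mutant replicate 2 (up to 0.109 without the others).

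The eEF1B genes did not pass. Eef1g, which anchors that complex, lay apart from wildtype in group 1 with a log2 fold change of 0.17 (SE 0.07, adjusted p = 0.140, edgeR), and at 0.11 and 0.09 in group 2. The exchange factor genes Eef1b2 and Eef1d lay at 0.07 and 0.11 in group 1, at 0.01 and -0.02 in the group 2 mutant, and with low yield at -0.01 and 0.01. Near-identical copies elsewhere in the genome held 0.462% of the counts of Eef1a1 and its copies together, 2.6% for Eef1g and 2.24% for Eif4a1, and with copies summed into their gene the number of members called was the same in every comparison.

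Summed over all 41 members, the level was 39921, 38701 and 40627 CPM in wildtype and 42522, 41835 and 45399 CPM in mutants of group 1, which did not overlap. Eef1a1 and Eef2 together accounted for 73.5% of the difference between the group 1 means. Without these 2 genes the sums were 26863, 25801 and 26619 CPM in wildtype and 27383, 26079 and 28609 CPM in mutants, which overlapped. In group 2 the sums over all members were 36902, 33334 and 33361 CPM for wildtype, 38553, 33729 and 37758 CPM for mutant and 36676, 36471 and 36894 CPM for low-yield libraries, and they overlapped as well.

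The 10 members on the TOP list were Eef1a1, Eef1b2, Eef1d, Eef1g, Eef2, Eif3e, Eif3f, Eif3h, Eif4b and Pabpc1. In group 1, 3 of the 10 passed, all higher (Eef1a1, Eef2 and Eif4b), where 5.42% of all genes tested were called higher, and each of these 3 calls is lost on leaving out single libraries, as given above. The median log2 fold change in group 1 was 0.14, against 0.07 for the other 31 members. In group 2 the medians were 0.09 for the mutant and 0.07 for the low-yield mutant, against 0.06 and 0.10 for the other members, and 0 and 1 of the TOP genes passed, where 3.23 and 6.14% of all genes were called higher. Pabpc1 and Eif3f, on the same list, were below 0 in all 3 comparisons.

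The wildtype and mutant libraries of group 1 are separate from those of group 2, so the fold changes of both groups of mice can be set side by side. Across the 41 members they had the same sign in 31, of which 25 were above 0 and 6 below, with Pearson's r = 0.69 and Spearman's rho = 0.64. Over the 13370 genes tested in both, the signs matched in 76.6%, with r = 0.56 and rho = 0.63. The members' 75.6% was near this value, and genes are not independent replicates. Without Eif4g2 and Eif4a2, the members at the ends of the group 1 range, r was 0.61. Between group 1 and the low-yield mutant the signs matched in 33 of the 41 (80.5%, against 76.0% of all genes), with r = 0.58 and rho = 0.50 (0.57 and 0.63 over all genes), and without Eif4g2 and Eif4a2 r was 0.46.

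**Figure D5:**
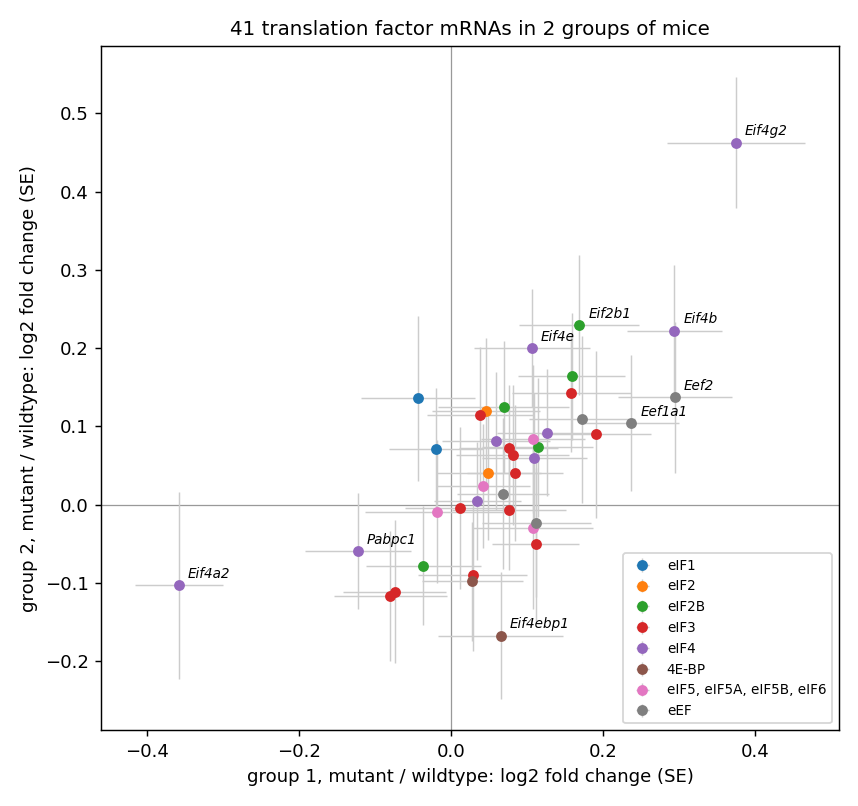
Log2 fold change of mutant against wildtype in group 1 (horizontal) and group 2 (vertical) for the 41 members, coloured by complex, with SE bars. Eif4g2 lies farthest out at 0.37 and 0.46, Eif4a2 lies far left at -0.36 but at -0.10 on the vertical axis, and 31 of the 41 points have the same sign on both axes.

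No member differed between the low-yield and the other mutants of group 2, where 0.0% of the 15024 genes passed edgeR's test, and 400 genes but no member had an unadjusted p under 0.05. No member's libraries were apart in this comparison, where those of 8.21% of all genes were. The members' log2 fold changes ran from -0.09 to 0.11, and the outer limits of their 95% intervals were -0.25 and 0.33. For Eif4g2, Eif4e and Eif4b the low-yield values lay above the mutant values by 0.06, 0.08 and 0.05. A test of whether the genotype effect differed between the groups of mice passed for 0 members and for 0.0251% of the 15954 genes.

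Among 56 related genes of translation that are not members, 53 were tested in each single-group comparison. In group 1, 2 were higher and 4 lower; in the group 2 mutant 1 was lower; in the low-yield mutant 3 were higher and 2 lower; and over both groups of mice 4 of 54 were higher and 6 lower. These are 11.3, 1.89, 9.43 and 18.5% of the related genes tested, against 11.9, 6.02, 11.7 and 18.0% of all genes, so their share was near or under that of all genes. Paip2b, which binds poly(A)-binding protein and represses it, fell in each comparison with wildtype. It was at 31.1, 33.1 and 29.8 CPM in wildtype and 21.3, 24.5 and 22.7 CPM in mutants of group 1, and at 23.8, 24.0 and 25.4 CPM for wildtype, 17.1, 16.6 and 17.4 CPM for mutant and 15.6, 17.2 and 18.1 CPM for low-yield libraries of group 2. No mutant library reached a wildtype library of its group of mice. Its log2 fold changes were -0.46, -0.52 and -0.52 (SE 0.09, 0.11 and 0.11, edgeR adjusted p = 0.00748, 0.0123 and 0.00687). Paip1, the poly(A)-binding protein partner that stimulates initiation, fell by 0.35 in group 1 (adjusted p = 0.0169) and by 0.36 over all 12 libraries of the joint fit (adjusted p = 0.00309). It passed in neither comparison of group 2 with wildtype.

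The eIF2 kinases Eif2ak1, which responds to heme, and Eif2ak4, which responds to uncharged tRNA, were lower in the joint fit of both groups of mice (-0.22 and -0.26, edgeR adjusted p = 0.0154 and 0.00410). Eif2d, an alternative tRNA-delivering factor, was higher there (0.30, adjusted p = 0.000982), as were Larp4 (0.22, 0.00291), the release factor gene Gspt2 (0.89, 0.00591) and Dhps (0.29, 0.0401), which begins the hypusine modification of eIF5A. Mknk2, a kinase of eIF4E, was lower (-0.22, adjusted p = 0.0137). Of these genes, Eif2ak1, Eif2ak4, Eif2d and Larp4 passed in group 1 but in neither comparison of group 2 with wildtype. Gspt2, Dhps and Mknk2 passed in the low-yield mutant but not in group 1 or the group 2 mutant.

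The gamma subunit of eIF2 is encoded on the sex chromosomes by Eif2s3x and Eif2s3y, which are not members. Eif2s3y had 0 counts in 7 of the 15 libraries: group 1 mutant replicate 1, group 2 wildtype replicates 1 and 3, mutant replicates 1 and 3 and low-yield replicates 1 and 2. In group 1 Eif2s3x was at 1047 CPM in the library without Eif2s3y counts and from 509 to 706 CPM in the other 5. In group 2 it was from 813 to 1060.3 CPM in the 6 libraries without and from 529 to 607 CPM in the 3 with such counts. The libraries of each group of mice are thus mixed in this respect, and its part in the members' fold changes was not tested.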

How the data were processed

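Bulk RNA was sequenced in 15 libraries. The authors deposited 2 tables of RSEM expected counts per gene, unnormalized and whole, with the library totals given above; cutadapt 2.3, STAR 2.7.8a, RSEM 1.3.3 and GRCm38 are named in the submitters' processing notes, while annotation release and strand setting are not given in the sources used here. Gene lengths, coordinates and near-identical copies (15 members, at most 2.6% of summed counts) came from GENCODE M21. Each comparison was fitted on all genes with edgeR 4.0.16 (R 4.3.3: TMM scaling, filterByExpr, robust quasi-likelihood F test, two-sided) with Benjamini-Hochberg adjustment over all genes tested, and the procedure was tested on simulated data. Group 2 was 1 fit of 9 libraries. The members and lists were chosen with earlier results of these data known. Per-library values are given for members that passed in the main edgeR fits, for the most abundant member of each complex and, in group 2, for Eif4ebp1. Related genes are named where they passed in at least 2 comparisons with wildtype. In group 1, same-numbered libraries deviated together (r = 0.441, 0.186 and 0.146), but so did wildtype 3 and mutant 2 (r = 0.23). The labels name no pairing, so whether the numbers pair the libraries was not settled. The fits reported are unpaired, and the replicate block is given as an alternative. Alternatives were DESeq2 1.42.0, limma 3.58.1 (voom with quality weights), other scalings, filters and lengths, summed copies, a replicate block and leaving out each library.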

Additional observations from a re-analysis of the deposited data

How the results depend on the processing

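Under the alternatives tried the number of members called stayed within 1.5 times of the value reported except as follows. Voom with sample quality weights called 4 members in the group 2 mutant, 6 in the low-yield mutant and 12 over both groups of mice, and requiring a mean CPM of at least 5 gave 10 over both groups. Leaving out 1 library at a time gave 1 to 7 members in group 1, 1 to 2 in the group 2 mutant, 1 to 4 in the low-yield mutant and 2 to 9 over both groups of mice, and 0 for the other 2 comparisons. No member called in any setting changed direction. With the replicate block the counts were 5, 1, 3, 0, 8 and 0. Their order is group 1, group 2 mutant, low-yield mutant, low-yield against mutant, both groups and interaction. Over both groups Eif2b4 and Eif3h passed in addition. Same-numbered wildtype and mutant libraries of group 2 had r = 0.241, 0.173 and 0.024, and same-numbered pairs with a low-yield library from -0.068 to 0.084. Whether the numbers pair the group 2 libraries was not settled, and the block over both groups uses them there too. Apart from the group 1 count with the block, counts over all genes under these settings are not given. The bias-adjusted mode of edgeR, chosen after seeing the data, called as many members as reported in each comparison. With the longest transcript as gene length the highest over the lowest eIF3 subunit was 3.90 and 3.73 in group 1 wildtype and mutant, and 7.51, 7.35 and 7.62 in group 2 wildtype, mutant and low-yield libraries, and for eIF2B it was 2.38 and 3.66 in group 1 and group 2 wildtype; the cause was not tested for any of these. With 3 libraries a group, the values inside a member's 95% interval are not excluded.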
